A study of Mus musculus with 3 samples.

Results

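Gene expression was compared between pAsc-treated T lineage cells at day 17 of culture and pAsc-treated T lineage cells at day 14. The members were probes whose Cy5 signal, which carried the treated RNA, was well above background on both arrays. They numbered 25489 of 41174 probes and stood for 16946 of 27725 genes. pAsc is phospho-ascorbate, a stable form of vitamin C. In the day 17 group, bone marrow progenitors of C57BL/6 mice had been grown for 17 days with Flt3L and IL7 and had 800 µM pAsc for the last 72 h. In the day 14 group, progenitors of the same strain had been grown for 14 days with the same cytokines and had 800 µM pAsc for the last 24 h. Both groups grew on OP9-DL1, stromal cells made to display Dll1, a ligand of Notch; the labels give them as osteoblast of strain B6-C3Hf1. The T lineage cells themselves are labelled only as bone marrow. Each group was 1 RNA sample on 1 array, so a gene was called by size, at 2-fold, and no test was possible. Days in culture and hours of pAsc differ together between the groups and cannot be told apart. The Cy3 channel of each array held RNA of untreated T lineage cells of the same day, and the remaining array of the 3 held OP9-DL1 cells treated with pAsc for 24 h.

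T lineage cells pass through ordered stages. Progenitors that receive a Notch signal through Dll1 commit to the T lineage, rearrange the T cell receptor beta gene and express it with the pre-T-cell receptor alpha chain. They then gain the coreceptors CD8 and CD4, rearrange the alpha gene and undergo selection. Genes of blood progenitors and of other lineages are normally shut off on the way. Ascorbate is a cofactor of iron-dependent dioxygenases, among them enzymes that demethylate DNA and histones, the prolyl hydroxylases that mark hypoxia-inducible factors for destruction, and the hydroxylases that mature collagen.

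Levels below are background-subtracted Cy5 intensities, scaled so that the members had the same median, 670, on both arrays, and differences are log2 of day 17 over day 14. Repeat spots of 1 probe differed in this difference with an SD of 0.162 over 176 probes, and different probes of 1 gene with an SD of 0.527 over 5939 genes. These are technical spreads, and spread between cultures was not measured. At the 2-fold rule, 1695 member genes (10.0%) were brighter at day 17 and 2050 (12.1%) were dimmer at day 17. The median difference was -0.06. Another 353 genes were above background at day 17 only, with a median intensity of 31.0 there, and 1728 at day 14 only, with a median of 35.6. These are no members and are given no fold difference. In such bulk RNA, fewer cells of a type and less RNA per cell cannot be told apart. Scaling to the spike-in RNAs or to the median of all probes would move the median of all genes to 0.35 and 0.36, so differences are best read relative to the other genes.

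T lineage genes were present on both days. All 12 T lineage markers, among them Cd3d, Cd3e, Lck, Thy1 and Bcl11b, were above background on both days, with a summed intensity of 248481 at day 17 and 328075 at day 14. Their differences lay between -1.01 for Tcf7 and 1.47 for Cd2. Stromal RNA was also present on both days, although the cultures had been depleted of stroma by adherence. All 12 stromal markers were above background, with a summed intensity of 639488 at day 17 and 320197 at day 14. None was at 0. As a share of the level in treated OP9-DL1 cells, the stromal markers had a median of 47.4% at day 17 and 17.4% at day 14. The share was higher at day 17 for 11 of the 12 and lower for Cdh11, a cadherin of mesenchymal cells, with 165% at day 17 and 279% at day 14.

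**Figure D1:**
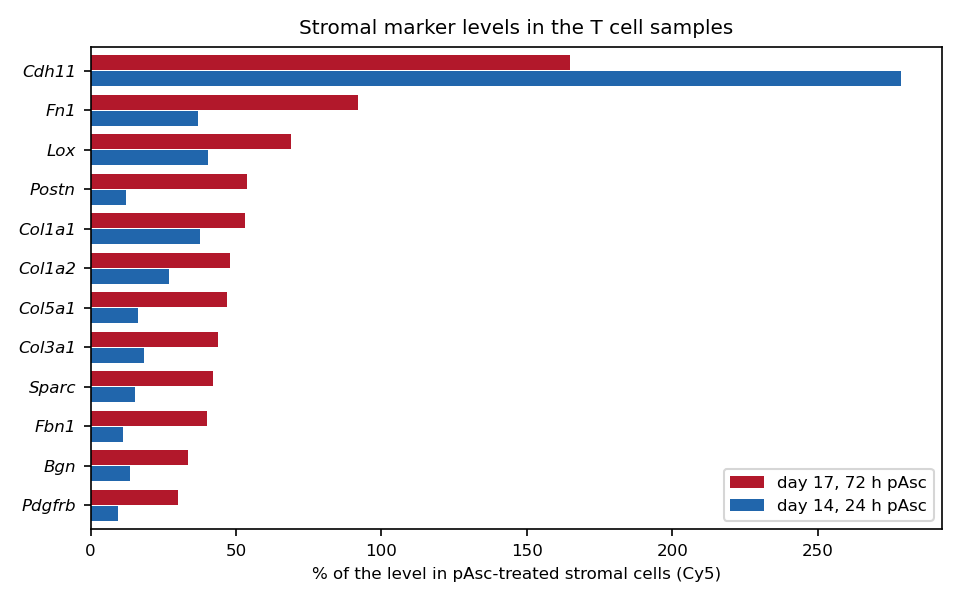
Level of 12 stromal marker genes in the treated T cell samples as a percentage of the level in pAsc-treated OP9-DL1 cells (Cy5, 1 array each). Day 17 (upper bar of each pair) is above day 14 (lower bar) for every marker shown other than Cdh11; Postn had 53.9% at day 17 and 12.3% at day 14.

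The promoters of 5 genes are shown because the results turn on them: the CD8 alpha gene, 2 genes of the pre-B-cell receptor and 2 interferon-stimulated genes. Each is 300 bases of RefSeq around the start of the gene on build GRCm38.p6, written in the gene's direction. Cd8a lies at chr6:71373177-71373476 on the plus strand, Vpreb1 at chr16:16869206-16869505 and Igll1 at chr16:16863936-16864235 on the minus strand, and Ifit3 at chr19:34583279-34583578 and Ifit1 at chr19:34640639-34640938 on the plus strand. Capitals mark matches, on either strand, to 1 motif per gene. The genes and motifs were chosen with these results known.
Cd8a: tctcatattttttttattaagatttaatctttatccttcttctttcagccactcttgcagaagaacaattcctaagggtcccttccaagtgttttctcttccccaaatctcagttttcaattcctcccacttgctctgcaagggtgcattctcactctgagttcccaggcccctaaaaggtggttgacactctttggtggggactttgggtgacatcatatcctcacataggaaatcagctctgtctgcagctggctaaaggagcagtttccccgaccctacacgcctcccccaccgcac
Vpreb1: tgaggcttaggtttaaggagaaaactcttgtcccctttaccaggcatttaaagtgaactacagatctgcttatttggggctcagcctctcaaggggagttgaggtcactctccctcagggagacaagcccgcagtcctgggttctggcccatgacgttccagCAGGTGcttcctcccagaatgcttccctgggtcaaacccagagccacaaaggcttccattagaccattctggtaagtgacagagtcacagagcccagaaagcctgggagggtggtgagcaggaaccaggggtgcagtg
Igll1: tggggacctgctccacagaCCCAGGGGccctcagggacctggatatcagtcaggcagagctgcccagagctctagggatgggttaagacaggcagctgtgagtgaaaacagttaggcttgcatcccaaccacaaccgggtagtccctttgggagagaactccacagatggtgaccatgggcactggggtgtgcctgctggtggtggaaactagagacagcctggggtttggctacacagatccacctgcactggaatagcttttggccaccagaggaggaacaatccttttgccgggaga
Ifit3: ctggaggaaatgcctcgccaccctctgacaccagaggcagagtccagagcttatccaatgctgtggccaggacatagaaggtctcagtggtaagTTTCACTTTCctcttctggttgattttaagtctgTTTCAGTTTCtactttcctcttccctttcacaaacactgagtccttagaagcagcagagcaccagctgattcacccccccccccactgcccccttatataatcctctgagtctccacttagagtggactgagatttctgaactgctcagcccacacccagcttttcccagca
Ifit1: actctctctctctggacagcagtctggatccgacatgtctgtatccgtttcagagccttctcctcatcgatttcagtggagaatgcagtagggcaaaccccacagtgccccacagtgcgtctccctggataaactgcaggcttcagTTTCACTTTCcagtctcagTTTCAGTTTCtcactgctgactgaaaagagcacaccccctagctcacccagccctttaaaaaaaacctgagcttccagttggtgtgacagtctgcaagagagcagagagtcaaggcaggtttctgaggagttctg
In Cd8a the motif TGTGGT, bound by Runx factors, had 0 matches. In Vpreb1 the E-box CAGNTG had 1 match, and in Igll1 the Ebf1-type motif CCCNNGGG had 1. In Ifit3 and Ifit1 the interferon-response motif, 2 copies of GAAA with any 2 bases between them, had 2 matches each, on the opposite strand. Of the 32851 promoters searched, which left out those of 1 chromosome, 16.8% held TGTGGT, 51.4% CAGNTG, 13.7% CCCNNGGG and 3.44% the spaced pair of GAAA. The matches describe these windows only.

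The genes of the CD8 coreceptor stood apart from the other members of the T cell lists. Cd8b1, the CD8 beta chain, had an intensity of 12897 at day 17 and 294 at day 14, a 43.8-fold difference (log2 5.45). Cd8a, the CD8 alpha chain, had 2409 at day 17 and 94.3 at day 14, a 25.5-fold difference (log2 4.68). Both genes were low at day 14 and high at day 17, and neither was above background in treated stroma. The 3 member probes of Cd8a gave differences from 3.96 to 4.68. The Cd8b1 probe lies at chr6:71287068-71287126 and the main Cd8a probe at chr6:71327330-71327389 of mm9, both on the plus strand, and their place in the transcript was not annotated here. Cd8b1 and Cd8a had the highest differences of all member genes that were not dim. The other coreceptor, Cd4, stayed near background, with 37.2 at day 17 and 55.0 at day 14 (log2 -0.56).

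**Figure D2:**
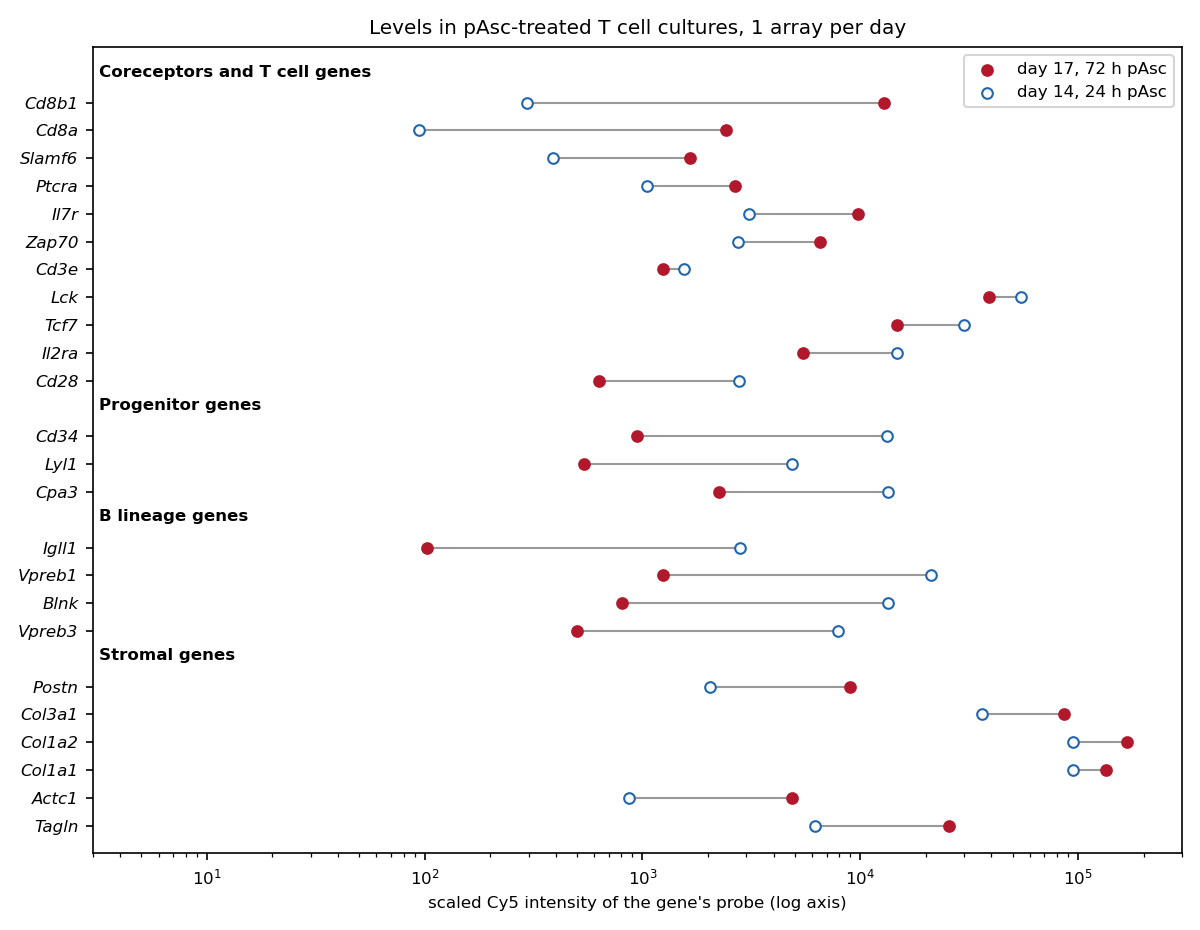
Scaled Cy5 intensity (log axis) of 24 genes of the pAsc-treated T cell samples, at day 17 (filled) and day 14 (open), 1 array per day. Cd8b1 and Cd8a lie to the right at day 17, the progenitor and B lineage genes to the left, and the stromal genes to the right.

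Of the 14 genes of coreceptors and their regulators, 3 passed 2-fold upward at day 17 and 2 downward, and the median was -0.15. Zbtb7b, which encodes the CD4-lineage factor ThPOK, had 836 at day 17 and 304 at day 14 (log2 1.46), but was brighter in treated stroma, at 2495. Runx3, a CD8-lineage factor, had 619 at day 17 and 1250 at day 14 (log2 -1.01, and -0.59 with scaling to the median of all probes). Ikzf1, the lymphoid regulator Ikaros, had 3389 at day 17 and 9491 at day 14 (log2 -1.49). Runx3 and Ikzf1 were thus brighter at day 14, unlike Cd8a and Cd8b1.

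Among the 30 genes of the receptor complex and its signalling, 3 were called higher and 3 lower, and the median was -0.24. Zap70, the kinase recruited to the receptor, had 6546 at day 17 and 2747 at day 14 (log2 1.25). Ptcra, the pre-T-cell receptor alpha chain, had 2651 at day 17 and 1045 at day 14 (log2 1.34). Cd2, an adhesion receptor, had 2307 at day 17 and 833 at day 14 (log2 1.47). These 3 were clearly brighter at day 17. Cd28, the costimulatory receptor, had 632 at day 17 and 2770 at day 14 (log2 -2.13), and Cblb, a ubiquitin ligase that restrains receptor signalling, was a dim gene with 32.6 at day 17 and 189 at day 14 (log2 -2.54). Trat1, an adaptor of the receptor, was also brighter at day 14, with a difference of -1.32 (-0.89 under the highest alternative). Lck and Cd3e, both defining T cell genes, differed by -0.48 and -0.31, less than 2-fold, although the 2 probes of Cd3e ranged from -1.09 to -0.31.

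Genes of receptor rearrangement and commitment were mixed. Rag1, the recombinase, had 7089 at day 17 and 5193 at day 14 (log2 0.45), and Dntt, the terminal transferase that adds bases at the joins, had 142590 at day 17 and 196682 at day 14 (log2 -0.46). Neither reached 2-fold. Of the 20 genes measured on the commitment list, 0 were called higher and 5 lower, and the median was -0.33. The list also holds genes of other states. Of the 5 lower, Hhex and Erg (-1.98 and -1.57) are also on the blood progenitor list, and the dim Bcl11a (-1.67) is on the B lineage list. Il2ra, the CD25 marker of early stages, had 5472 at day 17 and 14776 at day 14 (log2 -1.43, with 4 probes from -1.71 to -1.38). Tcf7, the T lineage factor TCF-1, had 14782 at day 17 and 29790 at day 14 (log2 -1.01, and -0.59 with scaling to the median of all probes). Both were brighter at day 14. Gata3, Lef1, Bcl11b, Notch1 and Notch3 were each within 2-fold, although Notch3, at 0.78, passed it at 1.21 under the highest alternative.

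Among 32 selection and maturation genes, 4 were called higher and 3 lower, and the median was -0.13. Slamf6, a SLAM-family receptor of double-positive thymocytes, had 1660 at day 17 and 386 at day 14 (log2 2.10). Il7r, the interleukin 7 receptor alpha chain, had 9796 at day 17 and 3071 at day 14 (log2 1.67), and its 3 probes ranged from 0.70 to 1.67. Both were brighter at day 17, and neither was above background in treated stroma. Cxcr4, a chemokine receptor, had 1202 at day 17 and 5561 at day 14 (log2 -2.21). Cd24a, a marker of immature cells, had 12834 at day 17 and 38262 at day 14 (log2 -1.58). Cd5 and Cd69, which mark receptor signalling, were within 2-fold, at 0.77 and -0.14, although Cd5 passed it at 1.20 under the highest alternative.

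Most genes of the blood progenitor state were lower at day 17. Of 19 measured, 12 were called lower and 4 higher. The median was -1.51, against -0.06 over all member genes. Cd34, a surface marker of progenitors, had 945 at day 17 and 13317 at day 14 (log2 -3.82), a 14.1-fold lower level. Lyl1, a progenitor transcription factor, had 538 at day 17 and 4842 at day 14 (log2 -3.17). Cd34 and Lyl1 were far below their day 14 level, and their treated stromal levels were 110 and 57.1. Muc13, Lmo1 and Hhex differed by -2.76, -2.65 and -1.98, and none of these 3 was above background in stroma. The 4 higher genes, Hoxa10, Meis1, Hoxa7 and Gata2, differed by 1.06 to 2.29, and all of them were brighter in treated stroma than in either T cell sample. Kit, Ly6a and Gata1 stayed within 2-fold under the main scaling, at 0.45, 0.99 and -0.37. Kit did not fall, with 9262 at day 17 and 6780 at day 14, and was not above background in treated stroma. Tal1, another progenitor factor, was above background at day 14 only, with 76.9 there. At day 17, 99% of probes not above background lay under 26.6, and no fold is given for Tal1.

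B lineage genes had the lowest median of the lists. Of 20 measured, 15 were called lower at day 17 and 0 higher, and the median was -2.12. The surrogate light chain genes, whose products form the pre-B-cell receptor, all lay far below their day 14 level. Vpreb1 had 1238 at day 17 and 21181 at day 14, a 17.1-fold lower level (log2 -4.10). Igll1, the lambda5 chain, had 102 at day 17 and 2810 at day 14 (log2 -4.78), and Vpreb3 had 501 at day 17 and 7874 at day 14 (log2 -3.97). Blnk, the adaptor of B cell receptor signalling, had 807 at day 17 and 13388 at day 14 (log2 -4.05). Cd79b, a chain of the B cell receptor, was lower too, at -1.06. Pax5 and Cd79a were above background at day 14 only, with 31.4 and 102 there, and no fold is given for them. Pax5 lay close to the limit of detection, since 99% of probes not above background at day 14 lay under 28.9. Ebf1, chosen after its value was seen, differed by 0.45 and was bright in treated stroma, at 2491. The promoters of 10 of the 14 B lineage members found among the promoters searched held CAGNTG, and 3 held CCCNNGGG.

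Myeloid and mast cell genes were mixed. Of 21 myeloid genes measured, 7 were called lower and 2 higher, and the median was -0.51. Over all member genes, 12.1% were called lower and 10.0% higher. Of the 7 myeloid genes without a stromal signal, 3 were called lower, near the 40.3% of all members without a stromal signal. Ctsg, the granule protease cathepsin G, had 69.1 at day 17 and 1655 at day 14 (log2 -4.58), a level at day 17 no higher than the 78.5 of treated stroma. Lyz2, a lysozyme, had 237 at day 17 and 1016 at day 14 (log2 -2.10). Both were low at day 17. The 2 higher genes, Cebpa and Cd14, were brighter in treated stroma. Tyrobp, another of the myeloid markers, had 2799 at day 17 and 1735 at day 14 (log2 0.69), and was not above background in treated stroma. Across the 21 myeloid genes, 8 differences lay above 0 and 13 below. Of 8 mast cell and basophil genes measured, 2 were called lower and 1 higher, and the median was -0.23. Cpa3, a carboxypeptidase of mast cell granules and early progenitors, had 2238 at day 17 and 13365 at day 14 (log2 -2.58). On the same list Kit, Il1rl1 and Gata2 lay above 0, at 0.45, 0.29 and 1.06. Other mast cell markers, Cma1, Mcpt4 and Ms4a2, were not above background on either day. Of 9 erythroid and megakaryocyte genes measured, 1 was called higher and 1 lower, and the defining genes Klf1 and Alas2 were not above background on either day. Hbb-bt, a beta globin gene of a near-identical family that is not on the list and was chosen after its value was seen, had 788 at day 17 and 17539 at day 14 (log2 -4.48, with 4 probes from -4.85 to -3.19). In untreated cells Hbb-bt had 1417 at day 17 and 6846 at day 14 (log2 -2.27), and it was not above background in treated stroma. Probes of such a family may bind the other members too. Of the alpha globin genes, chosen likewise, Hba-a1 had 143 at day 17 and 158 at day 14, and Hba-a2 had 257 at day 17 and 285 at day 14 (log2 -0.15 each); both were also above background in treated stroma, at 104 and 314.

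Cytotoxic and NK genes did not share a direction. Of 27 measured, 6 were called higher and 4 lower, and the median was 0.26. Gzma, the granule protease granzyme A, had 20629 at day 17 and 80866 at day 14 (log2 -1.97). The receptor genes Klrb1b, Klrb1c and Klrc1 differed by 1.64, 1.34 and 1.15, and Tbx21, the factor T-bet, by 1.20 (0.95 with normexp and an offset of 50). Of the 5 NK markers, 4 were above background on both days and Eomes was not. Their summed intensity was 18860 at day 17 and 26464 at day 14 and was mostly Nkg7, with 18279 at day 17 and 26204 at day 14 (log2 -0.52). The other 3, Ncr1, Klrb1c and Prf1, differed by 0.95, 1.34 and 1.07.

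The stromal and contractile lists were mostly higher at day 17, whereas all 14770 members with a stromal signal had a median near 0, at -0.002. Of 37 stromal genes measured, 23 were called higher and 0 lower (median 1.28), and of 18 muscle and contractile genes, 13 were higher and 0 lower (median 1.61). Acta2, smooth muscle actin, had 77088 at day 17 and 13218 at day 14 (log2 2.54, with 4 probes from 0.31 to 2.54). Myl9, a myosin light chain, had 58307 at day 17 and 9297 at day 14 (log2 2.65). Both were brighter still in treated stroma, at 378045 and 341271. Of the 23 collagen chains, 16 were higher and 0 lower (median 1.25). Col1a2 and Col1a1 themselves were within 2-fold, at 0.83 and 0.50, although their median over probes was 1.37 and 1.39. Of 24 genes of collagen modification, which include ascorbate-dependent hydroxylases, 6 were higher and 0 lower (median 0.78).

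Stromal niche genes followed. Of 16, 9 were higher and 0 lower (median 1.24), among them Jag1, a Notch ligand, with 7707 at day 17 and 1548 at day 14 (log2 2.32). Cxcl12, the chemokine that binds Cxcr4, had 124695 at day 17 and 39685 at day 14 (log2 1.65). Both were brighter in treated stroma. Not every gene brighter at day 17 was below its stromal level. Snai2, a mesenchymal transcription factor, had 63896 at day 17 and 5018 at day 14 (log2 3.67), with 52000 in treated stroma. Il6, a cytokine, had 1733 at day 17 and 294 at day 14 (log2 2.56), with 212 in treated stroma. Both were thus above the stromal level at day 17. Whether the share of stromal RNA set the level of these genes was not tested.

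The member genes divided by stromal signal. Of 8508 genes brighter in treated stroma than in both T cell samples, 1430 (16.8%) were called higher and 120 (1.41%) lower, and they made up 84.4% of all genes called higher. Of 2176 genes not above background in treated stroma, 76 (3.49%) were higher and 878 (40.3%) lower, with a median of -0.78. The first of these classes leaned to day 17 and the second to day 14. Dim genes leaned to day 14 in general: the 4237 members of lowest mean level held 50.6% of all genes called lower. Among the 856 genes of the second class that were not dim, 47 (5.49%) were higher and 343 (40.1%) lower. Of those without a stromal signal, the highest after Cd8b1 and Cd8a were H2-Q1, a class I gene in a family of near-identical copies, at 2.98, Fam83a at 2.54 and Cd200r1, an inhibitory receptor, at 2.49.

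**Figure D3:**
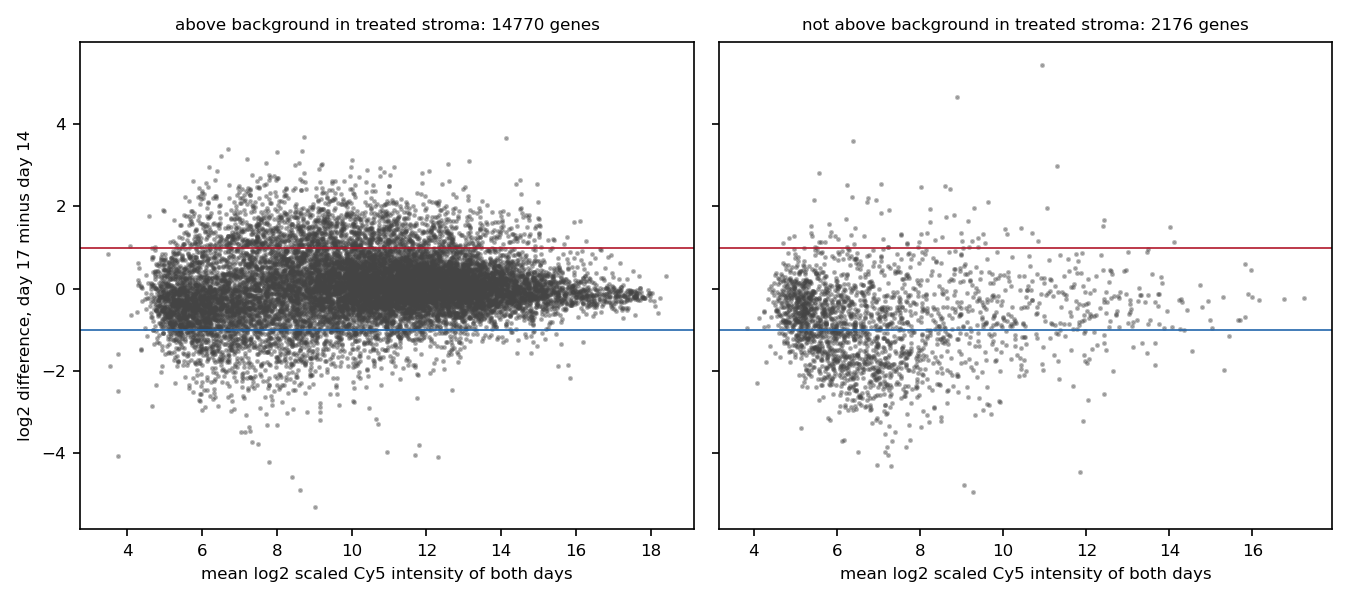
Log2 difference, day 17 minus day 14, against mean log2 scaled Cy5 intensity for member genes above background (left, 14770 genes) and not above background (right, 2176 genes) in treated OP9-DL1 cells. Lines mark 2-fold; 1619 genes on the left (11.0%) and 76 on the right lie at or above the upper line, and 1172 (7.94%) and 878 at or below the lower.

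Interferon-stimulated genes were partly higher. Of 36 measured, 7 were called higher and 2 lower, and the median was 0.16. A stromal signal was present for 34 of the 36. Of all members with a stromal signal, 11.0% were called higher and 7.94% lower. Of those brighter in treated stroma than in both T cell samples, the shares were 16.8% and 1.41%. Ifit3 had 628 at day 17 and 101 at day 14 (log2 2.64), and Ifit1 had 548 at day 17 and 116 at day 14 (log2 2.25); both encode RNA-binding antiviral proteins. Their levels in treated stroma were 6852 and 4676, above both T cell samples. Ifi44, Usp18 and Isg15 differed by 2.13, 1.29 and 1.09. Gbp3 and Mx2, a GTPase and an antiviral dynamin-like protein, were lower, at -1.17 and -1.29 (both -0.75 under the highest alternative). The spaced pair of GAAA was held by 17 of the 26 list members found among the promoters searched. It was in Ifit3 and Ifit1, which were higher at day 17, and in Gbp3, which was lower, but had 0 matches in Ifi44, which was higher. Class I presentation genes had 0 of 15 at 2-fold either way, while 4 of 11 class II genes were lower: Cd74, the invariant chain, H2-Ab1, H2-Eb1 and H2-Aa, at -1.86 to -1.53.

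Targets of hypoxia-inducible factors leaned lower at day 17, in treated and in untreated cells. Of the 36 measured, 8 were called lower and 2 higher, and the median was -0.60. In untreated cells, 7 of 35 were at least 2-fold lower and 2 higher, and the median was -0.65. Egln3, the prolyl hydroxylase that is itself a target, had 2202 at day 17 and 7413 at day 14 (log2 -1.75). Ak4, Ankrd37 and Bhlhe40 differed by -2.16, -2.04 and -1.93. The 2 higher genes, Selenbp1 and Angptl4, were bright in treated stroma, at 10104 and 86496. Of the 32 ascorbate transporters and dioxygenases, 6 were lower and 1 higher (median -0.30, and 0.13 under the highest alternative). Tet2, which oxidises methylated cytosine, had 131 at day 17 and 376 at day 14 (log2 -1.52). The histone demethylases Kdm6b and Kdm6a differed by -1.35 and -1.25 (-0.92 and -0.83 under the highest alternative), and the ascorbate transporter gene Slc23a1, which is dim, by -2.17. The DNA methyltransferases Dnmt3b and Dnmt3a were lower as well, at -1.29 and -1.06 (-0.87 and -0.63 under the highest alternative). Of 21 glycolysis genes, 3 were lower and 0 higher (median -0.54), with Slc2a3, a glucose transporter, at -1.77. In untreated cells the medians of the ascorbate and glycolysis lists were -0.30 and -0.57.

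Stress and immediate-early genes held the lowest value among members that were not dim. Atf3, a stress-induced transcription factor, had 82.6 at day 17 and 3292 at day 14 (log2 -5.32), a 39.9-fold lower level. Fosb had 1359 at day 17 and 8671 at day 14 (log2 -2.67), and Klf4, which restrains proliferation, had 27680 at day 17 and 124904 at day 14 (log2 -2.17). All 3 were far brighter at day 14. Of 24 immediate-early genes, 5 were lower and 0 higher, with a median of -0.17. None of the 56 cytosolic ribosomal, 42 respiratory chain or 31 proteasome genes reached 2-fold. Of 42 cell cycle genes, 1 was higher and 1 lower, with Mki67 at -0.38 and Ccna2 at -0.54, and of 37 DNA replication genes, 1 was lower. The DNA replication list had a median of -0.42, with 33 of the 37 genes below 0, and lay 0.33 to 0.47 below the median of all genes in each of 10 settings.

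**Figure D4:**
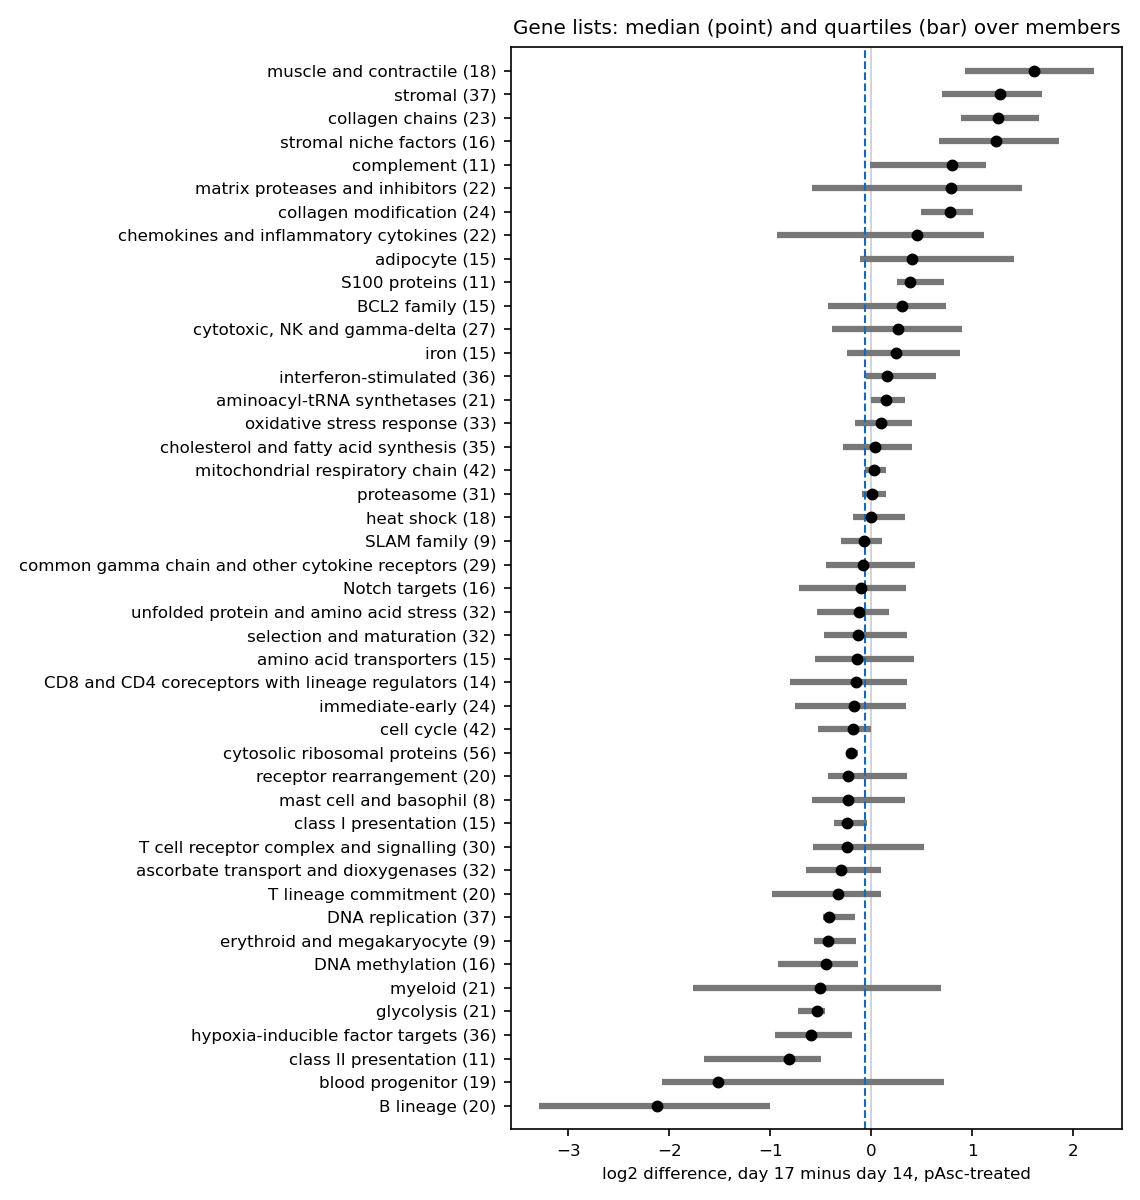
Median (point) and quartiles (bar) of the log2 difference, day 17 minus day 14, over the measured members of each gene list, with the number of members in parentheses; the dashed line is the median of all member genes, -0.06. Contractile and stromal lists lie at the top, B lineage (-2.12) and blood progenitor (-1.51) at the bottom.

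The same days were set side by side in untreated RNA, which was in the Cy3 channel of the same arrays. Of 15744 genes above background in both channels on both arrays, 1566 (9.95%) passed 2-fold upward at day 17 in treated cells and 1561 (9.91%) in untreated cells; 1298 were in both sets, 82.9% of the treated set and 83.2% of the untreated. Of genes lower at day 17, 1786 (11.3%) were in treated cells and 1182 (7.51%) in untreated cells, and 1030 were in both, 57.7% of the treated set and 87.1% of the untreated. The 2 channels share their spots and their day, so this overlap is no independent support. Cd8b1 and Cd8a were higher in untreated cells too, at 3.28 and 3.43, as were the stromal genes, with Postn at 2.13 in treated cells and 2.48 in untreated cells. Cd34 differed by -3.82 in treated cells and -1.16 in untreated cells, Lyl1 by -3.17 and -0.95, and Vpreb1 by -4.10 and -2.25. Zap70 differed by 1.25 in treated cells and 0.17 in untreated cells, and Slamf6 by 2.10 and 0.90. The differences of these 5 genes were larger in the treated pair. Treated RNA was in Cy5 and untreated RNA in Cy3 on both days, so treatment and dye cannot be told apart between the pairs. Whether the pairs differ was not tested, since each has 1 array per day.

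**Figure D5:**
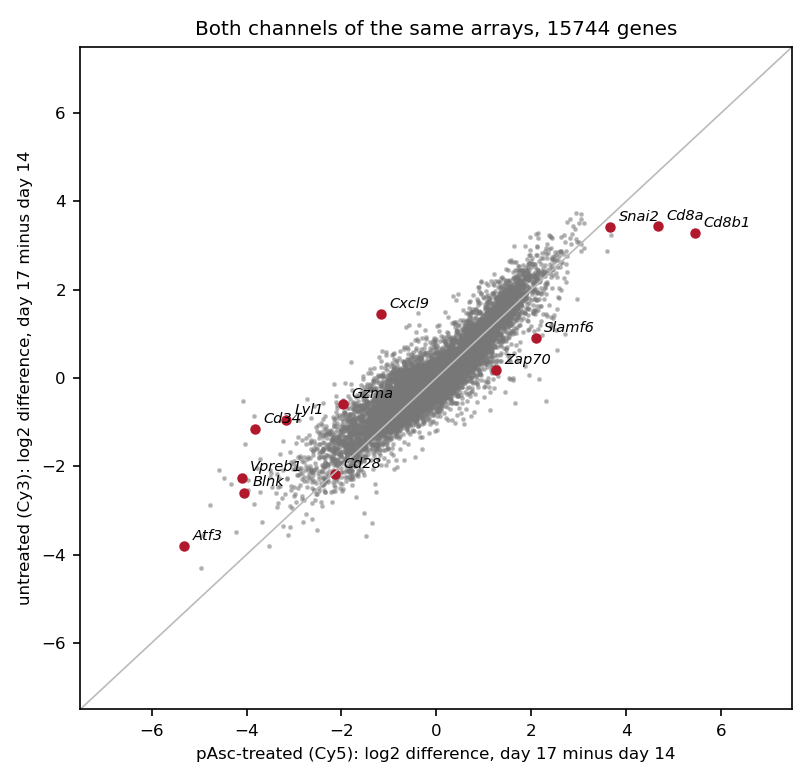
Log2 difference, day 17 minus day 14, in pAsc-treated RNA (x axis, Cy5) against untreated RNA (y axis, Cy3) for genes above background in the channels concerned, with named genes in red and the line of equality. Most genes lie near the line; Cd34, Lyl1 and Vpreb1 lie to its left and Cxcl9 has opposite signs.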

How the data were processed

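Agilent Feature Extraction 10.5.1.1 produced the deposited intensity values per spot and channel, per the file headers, with mean signals and median local backgrounds and no normalization. Local background was subtracted, spots with outlier flags (49 at day 17, 46 at day 14) were left out, log2 values were averaged per probe, and arrays were scaled to a common median over members. A probe was a member where a share of at least 0.5 of its spots was well above background on both arrays. The dimmest members lay near 22.0 at day 17 and 27.1 at day 14 (first percentile), and 99% of probes not above background lay under 26.6 and 28.9. A gene was represented by its brightest member probe. Treated stroma was scaled over probes above background on all 3 arrays. Dim means under the 25th percentile of mean level. Of the 16946 member genes, 14001 were named from RefSeq. 0 members were saturated, and all arrays shared 1 slide and scan. limma 3.58.1 in R 4.3.3 gave the normexp alternatives, and Python 3.11.15 the rest. With 1 array per group, the number of arrays limits precision. Genes named were the 15 highest and 15 lowest, also without stromal signal, up to 6 called members of each list, and a fixed set. The members and lists were chosen with earlier results of these data known.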

Additional observations from a re-analysis of the deposited data

Results flagged for a closer look

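Cxcl9, an interferon-induced chemokine, was the 1 gene at least 2-fold apart in opposite directions in the treated and untreated pairs. In treated cells its intensity was 39.2 at day 17 and 87.5 at day 14, a log2 difference of -1.16. In untreated cells it was 54.7 at day 17 and 20.0 at day 14, a log2 difference of 1.45. The gene is dim and was not above background in treated stroma. With normexp and an offset of 50 the treated difference was -0.48. The difference between the pairs was not tested, since each group was 1 array, and the pairs also differ in dye.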

How the results depend on the processing

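The counts of called genes depended on the scaling and on how dim genes were treated. Main counts were 1695 higher and 2050 lower, and 76 higher and 878 lower among genes without a stromal signal. Scaling to the median of all probes gave 3205 higher and 1103 lower, and 161 and 581 without a stromal signal. Spike-in scaling, chosen after seeing the data, gave 3143 and 1119, with 158 higher without a stromal signal. Quantile normalization gave 138 and loess 127 higher without a stromal signal. Normexp with an offset of 50 gave 960 lower, and 47 higher and 406 lower without a stromal signal. With dim genes left out, 1128 were lower, and 47 and 343 without a stromal signal. Without genes brighter in stroma, 265 were higher. Over 10 settings, 1214 genes (71.6%) were called higher in each and 745 (36.3%) lower in each. The B lineage median was -1.49 with normexp and an offset of 50. With dim genes left out, the mast cell and basophil median was 0.29 and the adipocyte median 0.99. The causes were not tested. Of 495 other-setting list medians 492, and of 2205 gene values 2141, moved by less than 0.527, the SD between probes of a gene. Of 225 genes at 2-fold under the naming rule, 0 changed sign and 56 fell under 2-fold in at least 1 setting. The median changed sign in at least 1 setting for 21 of 45 lists, among them all 6 T cell lists from coreceptors to Notch targets and the ribosomal, proteasome, cell cycle, DNA replication, class I, immediate-early and ascorbate lists. Of the 21, 18 turned when scaled to the median of all probes and 17 when scaled to the spike-ins. Relative to the median of all genes, 4 lists turned. No paired analysis was possible because each group has 1 array. Dim genes are limited by their signal over background.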

Other observations

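Further gene groups, not described above, are given here. Of 22 chemokine and inflammatory cytokine genes measured, 7 were at least 2-fold brighter at day 17 and 6 dimmer, with a median of 0.45. Il1rn, the interleukin 1 receptor antagonist, had 10508 at day 17 and 2460 at day 14 (log2 2.10), and was brighter in treated stroma, at 32957. Cxcl10, an interferon-induced chemokine, had 336 at day 17 and 1752 at day 14 (log2 -2.38). Among 15 BCL2 family genes, 4 were called higher and 2 lower. Bid, a death-promoting member, had 3895 at day 17 and 1319 at day 14 (log2 1.56), with 9451 in treated stroma. Pmaip1, which encodes NOXA, had 1366 at day 17 and 4157 at day 14 (log2 -1.61), and Bcl2l11, which encodes BIM, had 2863 at day 17 and 6518 at day 14 (log2 -1.19). Pmaip1 was not above background in treated stroma.

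Of 15 adipocyte genes, 6 were called higher and 1 lower. Cebpd, a transcription factor of early adipocyte differentiation, had 26611 at day 17 and 3065 at day 14 (log2 3.12), and Lpl, lipoprotein lipase, had 19826 at day 17 and 3544 at day 14 (log2 2.48). Both were brighter in treated stroma, at 38542 and 21433. Of 15 iron genes, 3 were higher and 2 lower. Slc40a1, the iron exporter ferroportin, was dim, with 302 at day 17 and 53.7 at day 14 (log2 2.49), and was brighter in treated stroma, at 1369. Tfrc, the transferrin receptor, had 2563 at day 17 and 5521 at day 14 (log2 -1.11), with 84.6 in treated stroma. Of the lowest genes without a stromal signal, Clec4d and Clec4e, C-type lectins of myeloid cells, differed by -4.04 and -2.89, and Cd83, a marker of activated cells, by -3.04.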
